A study of Mus musculus with 12 samples.

Results

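Sqor, Ethe1, Tst, Mpst, Suox and Cbs encode enzymes of hydrogen sulfide production and of the steps that oxidize its sulfur to sulfate. They were measured by 8 probe sets among the 45101 of the array. All probe sets that name exactly 1 of the 6 symbols were taken, and none of the 8 names a second gene. In all, the table covers 18194 genes by probe sets that name them alone. Sqor was chosen on its difference between cultures with and without iron on these same arrays, and the other genes were joined to it by pathway. The values of all 6 genes with iron are therefore given as a description, with no test.

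The arrays measured RNA of BNL CL.2, a mouse liver cell line, after 24 h in DMEM with 10% fetal bovine serum, with 4 groups of 3 arrays. In the group alone, the culture insert above the cells held further BNL CL.2 cells. The group FAC had the same insert cells and received the soluble iron salt ferric ammonium citrate at 100 micromolar. The group RAW had cells of the mouse macrophage line RAW 264.7 in the insert and no added iron salt, and the group RAW_FAC had both the RAW 264.7 cells and 100 micromolar of the salt. All 4 groups thus come from 1 cell line and had cells in the insert. No label states that the replicates were grown as separate cultures, so p-values cover only the spread between these arrays, which may be technical.

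Hydrogen sulfide is made from cysteine and homocysteine by Cbs and by cystathionine gamma-lyase (Cth), and from mercaptopyruvate by Mpst. In mitochondria, Sqor (sulfide:quinone oxidoreductase) oxidizes sulfide, passes the electrons to coenzyme Q and hands the sulfur to glutathione as a persulfide. Ethe1, an iron-dependent dioxygenase, oxidizes that persulfide to sulfite, Tst (rhodanese) moves sulfur between thiosulfate, glutathione and other acceptors, and Suox (sulfite oxidase), a molybdenum and heme enzyme, converts sulfite to sulfate. Liver is a main site of this pathway.

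The sequences upstream of Sqor and Ethe1 are shown because these genes code for consecutive steps and both had higher signals with iron whenever arrays with equal replicate numbers were compared. RefSeq windows of build GRCm38.p6 were found for 5 of the 6 genes. Each sequence is the 250 bases before an annotated transcript start, on the gene's strand, with CG dinucleotides in capitals. The RefSeq record of Sqor begins upstream of the start used, so its window belongs to 1 of its starts. The Ethe1 window is the first of its 2.
Sqor, chr2:122771463-122771712 (+): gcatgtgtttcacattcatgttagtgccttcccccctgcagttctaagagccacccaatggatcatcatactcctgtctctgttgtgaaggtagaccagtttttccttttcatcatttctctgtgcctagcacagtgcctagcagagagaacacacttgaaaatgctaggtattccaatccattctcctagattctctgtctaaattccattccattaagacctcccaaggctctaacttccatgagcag
Ethe1, chr7:24587293-24587542 (+): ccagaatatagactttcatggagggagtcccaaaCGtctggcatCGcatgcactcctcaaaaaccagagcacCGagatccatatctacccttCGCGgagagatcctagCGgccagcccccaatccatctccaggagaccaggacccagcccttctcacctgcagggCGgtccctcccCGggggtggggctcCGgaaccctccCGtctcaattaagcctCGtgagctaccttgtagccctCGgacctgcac

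The Sqor window held 0 CG dinucleotides at 44.4% G and C, whereas the Ethe1 window held 12 at 60%. The Suox window held 35, the Cbs window 21 and the 3 Mpst windows 18, 15 and 7. Among 32851 windows of the same length the median was 6, and 7.87% of the windows had none. The letters TGACNNNGC, the core of the antioxidant response element, were searched on both strands. They were found once, in 1 of the 3 Mpst windows, and in none of the windows of Sqor, Ethe1, Suox and Cbs, while 10.2% of all windows held them.

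RMA signals of different probe sets are not on a scale that compares RNA amounts between genes, so each signal was set only against the median of the table, 5.65. Of the 8 probe sets, 6 had a mean over the 12 arrays above it. The means were 10.54 for the brighter Sqor probe set 1420641_a_at, 9.36 for Ethe1, 8.97 for Suox, 8.59 for Mpst and 8.30 for Tst. The brighter Cbs probe set 1423844_s_at, at 5.66, lay just above the median, and the dimmer 1425623_a_at, at 5.44, lay below it. The dimmer Sqor probe set 1430998_at had a mean of 4.24, with 24.6% of all probe sets lower. The values carry no detection calls, so whether a dim probe set measured its transcript was not tested. In the naming of these arrays, the ending _a marks probes shared by transcripts of 1 gene and the ending _s marks probes that may match transcripts of several genes.

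The brighter Sqor probe set had higher signals with iron than without it in every same-number pair, a pair being 2 arrays of different groups that carry an equal replicate number. In the group alone its log2 signals were 9.84, 10.63 and 10.65 in replicates 1, 2 and 3. In FAC they were 10.25, 11.13 and 10.97. In RAW they were 9.76, 10.59 and 10.50, and in RAW_FAC 10.17, 11.07 and 10.89. Replicate 1 was the lowest array of every group, and because of it the groups of each iron comparison overlapped. The group means were 10.37 ± 0.46 in alone, 10.78 ± 0.47 in FAC, 10.29 ± 0.46 in RAW and 10.71 ± 0.48 in RAW_FAC (SD, n = 3 each). Within each replicate number the order was FAC, RAW_FAC, alone and RAW from high to low. Neighbours in this order, and the groups of each iron comparison, had means that differed by less than the SD of any group, which includes the low array of replicate 1.

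Within same-number pairs the log2 difference of that probe set with iron was 0.40, 0.49 and 0.33 for FAC against alone and 0.41, 0.48 and 0.39 for RAW_FAC against RAW. The mean of the 6 was 0.42, a 1.33-fold difference. All 6 pairs thus lay in a narrow range, with and without macrophages. The mean's standard error (SE) was 0.21 in a limma model with 1 mean per group. With the replicate number as a further additive term, the replicate block, it was 0.041.

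The dimmer Sqor probe set did not follow the brighter one in the size of its differences with iron. In direction it did so in every pair with macrophages, but not in every pair without them. Its log2 signals in replicates 1, 2 and 3 were 4.39, 4.16 and 4.34 in alone, 4.33, 4.18 and 4.20 in FAC, 4.22, 4.18 and 4.09 in RAW, and 4.30, 4.32 and 4.18 in RAW_FAC. The 12 arrays spanned 0.30 on the log2 scale, and the groups overlapped in both iron comparisons. Its pair differences with iron were -0.06, 0.02 and -0.14 without macrophages and 0.09, 0.14 and 0.09 with them, with a mean of 0.02 (SE 0.056). In each of the 6 pairs the brighter probe set's difference was larger, by 0.30 to 0.47. That the 2 probe sets disagree was known when the genes were chosen, so this gap is a description and not a test. Over the 12 arrays the Pearson correlation between the 2 Sqor probe sets was -0.36, a description over arrays that share replicate numbers and groups. This value includes the log2 difference of the arrays numbered 1 from the others, -0.80 for the brighter and 0.11 for the dimmer probe set. Its sign therefore does not describe the differences with iron.

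**Figure D1:**
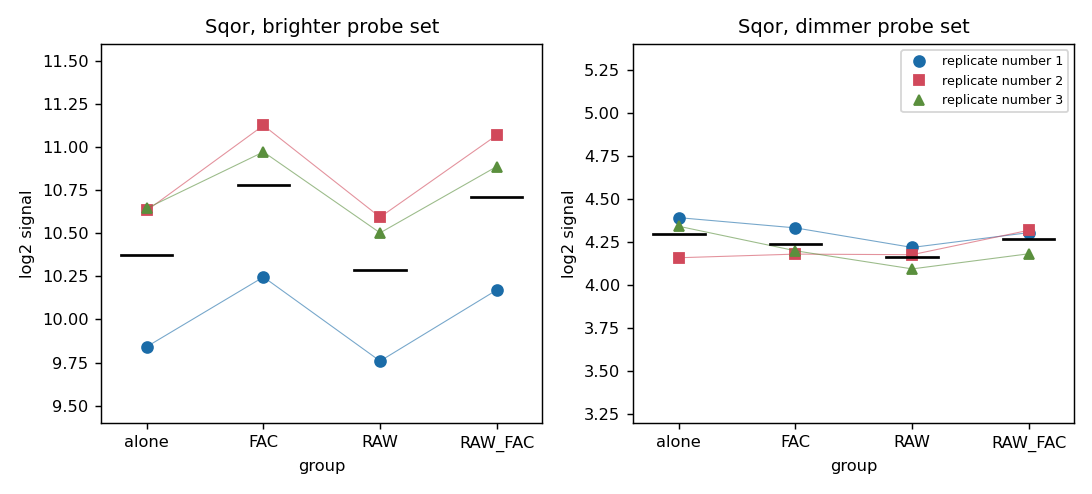
Log2 signal (vertical axis) of the brighter (left) and dimmer (right) Sqor probe set in the 4 groups (horizontal axis), on scales of equal length. Points are arrays, lines join arrays of 1 replicate number and bars are group means; the brighter probe set is higher in FAC than in alone and in RAW_FAC than in RAW at each number, and the dimmer one stays between 4.09 and 4.39.

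Among the 8 member probe sets, the brighter one of Sqor was the only one with all arrays of 1 number below the rest. Its 4 arrays numbered 1 lay between 9.76 and 10.25, all below the other 8 at 10.50 to 11.13, a pattern seen in 2.08% of all probe sets. The log2 difference of number 1 from the others was -0.80, and 99.8% of probe sets had a smaller one in size. For the dimmer Sqor probe set it was 0.11, and for the other 6 probe sets between -0.06 and 0.09. The control probes that compare the 3' and 5' ends of Gapdh differed by -0.02 to 0.01 on the arrays numbered 1, by -0.05 to -0.03 on those numbered 2 and by 0.06 to 0.11 on those numbered 3. Those of b-Actin differed by 0.36 to 0.41, 0.32 to 0.38 and 0.36 to 0.42, so by this control number 1 overlapped both others. The titles do not say what the numbers stand for, and the part of RNA quality or of a batch in this level was not tested.

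Ethe1, which acts on the product of Sqor, was the other probe set with higher signals in all 6 pairs with iron. Its log2 signals in replicates 1, 2 and 3 were 9.36, 9.27 and 9.35 in alone and 9.37, 9.42 and 9.38 in FAC. They were 9.22, 9.33 and 9.27 in RAW and 9.44, 9.50 and 9.38 in RAW_FAC. The arrays with iron lay above those without it in both comparisons, narrowly so in FAC against alone. The pair differences were 0.02, 0.15 and 0.04 without macrophages and 0.22, 0.16 and 0.11 with them, with a mean of 0.12 (SE 0.045).

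The brighter Cbs probe set, for the enzyme that condenses homocysteine with serine or cysteine, was lower with iron in all 6 pairs. Its log2 signals were 5.67, 5.68 and 5.69 in alone, 5.66, 5.56 and 5.59 in FAC, 5.70, 5.84 and 5.85 in RAW, and 5.44, 5.70 and 5.52 in RAW_FAC. The 2 groups without macrophages did not overlap, and RAW_FAC replicate 2 reached the lowest RAW value of 5.70. The mean difference was -0.16 (SE 0.055). The dimmer Cbs probe set was higher with iron in 3 of the 6 pairs, with a mean of 0.05, and over the 12 arrays the correlation between the Cbs probe sets was -0.04. Both lay near the table median, where a low signal and background cannot be told apart in these values.

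The remaining sulfur enzymes showed no common direction with iron. The Tst signals were 8.22, 8.36 and 8.32 in alone, 8.32, 8.19 and 8.27 in FAC, 8.19, 8.26 and 8.20 in RAW, and 8.36, 8.35 and 8.57 in RAW_FAC. Tst was thus higher with iron in the 3 pairs with macrophages (0.17, 0.09 and 0.37) and in 1 of the 3 without. Mpst, with group means from 8.54 to 8.64, was higher with iron in 3 of 6 pairs, from -0.14 to 0.41, and Suox, with group means from 8.92 to 9.04, also in 3 of 6, from -0.44 to 0.38. Tst and Mpst belong to 1 protein family and are neighbours, with 0 genes listed between them in GRCm38.p6. Their signals correlated at 0.06 over the 12 arrays.

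Of all 45101 probe sets, 3.25% were higher with iron in all 6 pairs and 3.33% lower in all 6, against 2 and 1 of the 8 member probe sets. The 3 arrays with iron lay on 1 side of the 3 without it for Ethe1 and the brighter Cbs probe set in FAC against alone, where 7.93% of all probe sets did so. For RAW_FAC against RAW the probe sets of Ethe1 and Tst did so, against 9.65% of all. In the limma model without the block, 0% of probe sets passed a Benjamini-Hochberg adjusted p of 0.05 in either iron comparison or in their average, with 1355, 2412 and 2528 below an unadjusted p of 0.05. With the replicate block 0.00887% passed in FAC against alone, 0.0244% in RAW_FAC against RAW and 0.381% in the average, or 4, 11 and 172 probe sets. These shares describe the table, and the members are not read against them because Sqor was chosen on this contrast. The median difference with iron over the 8 probe sets, the chosen Sqor one among them, was 0.07, with 6 above 0. Over the table the median was -0.00, with 48.7% above 0.

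**Figure D2:**
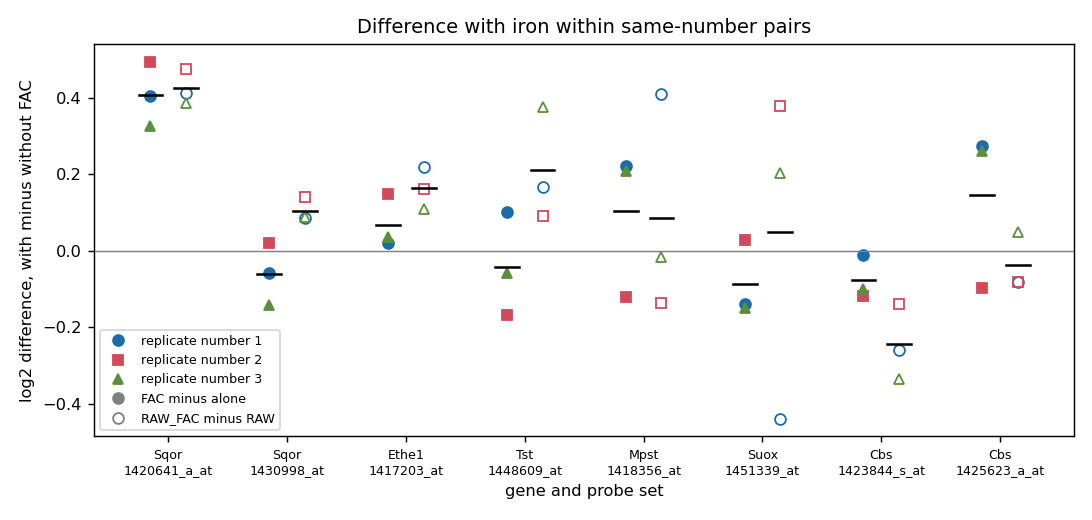
Log2 difference with minus without iron (vertical axis) of the 8 probe sets (horizontal axis) in the same-number pairs. Filled points are FAC minus alone, open points RAW_FAC minus RAW, marker shape gives the replicate number and bars are means of 3 pairs; the brighter Sqor probe set spans 0.33 to 0.49, and the brighter Cbs probe set lies below 0 in all 6 pairs.

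The comparisons of RAW with alone and of RAW_FAC with FAC asked whether the macrophage line in the insert went with a difference in these enzymes. None of the 8 probe sets passed in either comparison, with or without the replicate block, and neither did any other probe set of the table (0%). Without the block, 1808 and 1436 probe sets of the table had an unadjusted p below 0.05. Among the members the Tst probe set alone did, in RAW_FAC against FAC, at 0.0464, where its log2 difference was 0.17 (limma adjusted p 1.00). Averaged over both iron conditions, 1 probe set of the table passed (0.00222%), or 3 with the block (0.00665%), and no member did.

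The brighter Sqor probe set was lower with macrophages in all 6 pairs, by a log2 difference of -0.14 to -0.04, smaller in size than each of its differences with iron. Of all probe sets, 5.1% had 1 direction in all 6 pairs. The difference was -0.09 without iron (95% interval -0.74 to 0.56, and -0.22 to 0.04 with the block) and -0.07 with iron (-0.73 to 0.58, and -0.20 to 0.06 with the block). The averaged difference of -0.08 did not pass with the block (SE 0.041, limma adjusted p 0.798). The 3 RAW arrays all lay above those of alone for the brighter Cbs probe set, against 9.02% of probe sets on 1 side or the other, with a difference of 0.12. The 3 RAW_FAC arrays lay above those of FAC for Tst, against 6.94%.

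**Figure D3:**
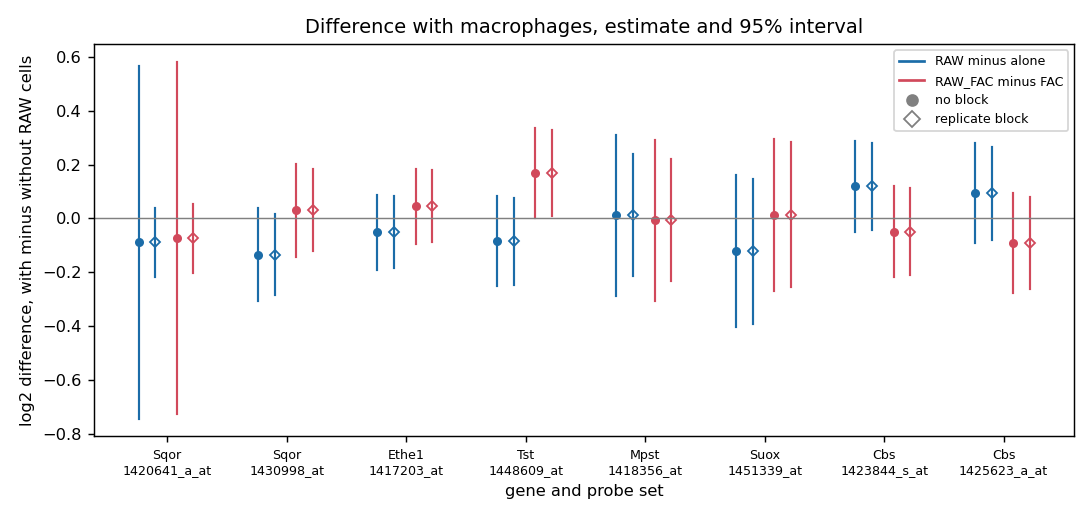
Log2 difference with minus without RAW 264.7 cells (vertical axis) of the 8 probe sets (horizontal axis), in RAW minus alone and RAW_FAC minus FAC. Points are limma estimates without (filled) and with (open) the replicate block, and lines are 95% intervals; without the block the Sqor interval runs from -0.74 to 0.56 in RAW minus alone, and with it from -0.22 to 0.04.

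Whether the difference with iron depended on macrophages was tested as an interaction, and 0% of probe sets passed with or without the block (1382 had an unadjusted p below 0.05 without it). For the brighter Sqor probe set the interaction was 0.02 (95% interval -0.91 to 0.94, and -0.16 to 0.20 with the block). The Tst interaction was 0.25 (0.02 to 0.49), with an unadjusted p of 0.0365 and a limma adjusted p of 1.00. No interaction of the other members had an unadjusted p below 0.05.

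The probe sets most like the brighter Sqor probe set were ranked by Pearson correlation over the 12 arrays, among 19944 that name 1 other gene and have a mean above the table median. They were those of Hspa5 (0.984), the endoplasmic reticulum chaperone BiP, Tgfb2 (0.982), a growth factor, Xbp1 (0.981), a transcription factor of the unfolded protein response, Nudt7 (0.979), a coenzyme A hydrolase of peroxisomes, and Nek3 (0.979), a kinase. All of these had low arrays of number 1, with differences of -1.15 to -0.33 from the others. After the mean of each replicate number was subtracted, the order changed to Srxn1 (0.992), which reduces oxidized peroxiredoxins, Pgd (0.984) of the pentose phosphate pathway, Ikbkg (0.978), a regulator of NF-kB, Abcc4 (0.976), an exporter, and Gclc (0.973), the catalytic subunit of glutathione synthesis from cysteine. The mean log2 difference with iron of these probe sets ran from 0.21 to 0.43, higher in 6 of 6 pairs for each. Low arrays of number 1 and a difference with iron are features of the brighter Sqor profile itself. Ranking by likeness to it selects for both, so neither is a separate result. With number means subtracted, Ethe1 correlated with the brighter Sqor probe set at 0.836, the brighter Cbs probe set at -0.717, and the other 4 probe sets of Tst, Mpst, Suox and Cbs at 0.007 to 0.337. These arrays share groups and replicate numbers, so the correlations describe and do not test.

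**Figure D4:**
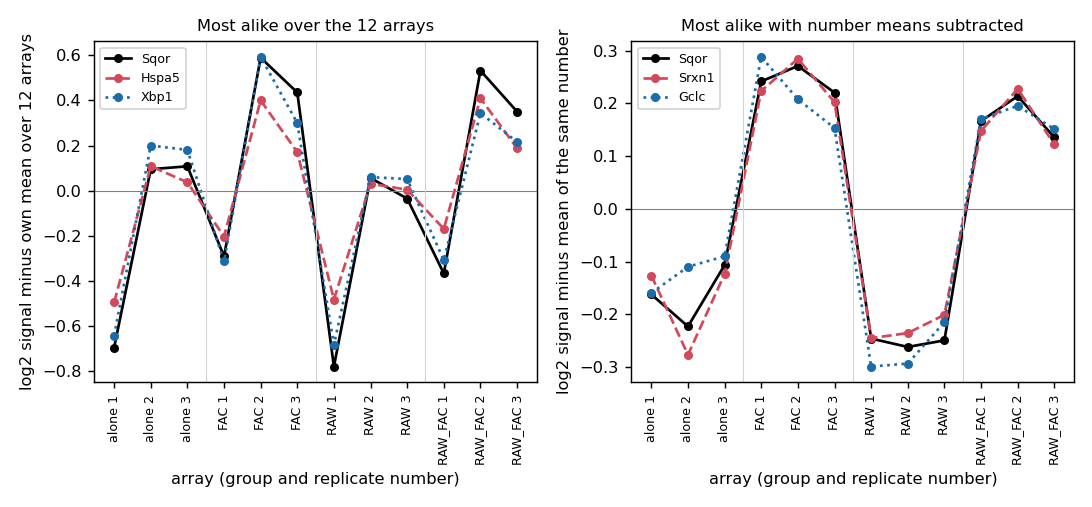
Log2 signal (vertical axes) of the brighter Sqor probe set and similar probe sets over the 12 arrays (horizontal axis), minus each one's mean over the arrays (left, with Hspa5 and Xbp1) and minus the mean of the same replicate number (right, with Srxn1 and Gclc). On the left the arrays of number 1 are the lowest of each group. On the right all arrays with iron lie above 0 and all without it below 0. Ranking by likeness to Sqor selects for both patterns.

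The dimmer Sqor probe set was most like those of Ttc4 (0.861), Chrac1 (0.853), Map1lc3b (0.852), Aff1 (0.841) and Kdm3b (0.841). With number means subtracted these were 4930556L07Rik (0.905), Kdm3b (0.897), Map1lc3b (0.867), Bcat2 (0.842) and Wdr1 (0.826). None of these genes is among the 10 named for the brighter probe set.

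Other genes of sulfur metabolism were read from a list drawn up from knowledge of the pathway. Of its 48 genes 44 were found, and 39 of the 44 had a probe set above the table median. Earlier results of these data were known when the list was chosen, so its p-values with iron describe and do not test. Those that pass come from the fit with the replicate block, whose SE may be too small for iron. In the average difference with iron, with the replicate block, 5 of the 44 rose and 0 fell, against 0.381% of all probe sets. The list holds 1 probe set per gene. In a separate fit with the block and 1 probe set kept per gene over the table, 144 of 18194 passed. Its p-values were adjusted over those 18194, whereas the 5 of the list were called in the fit of all probe sets. Slc7a11, the cystine transporter subunit, rose by 0.89 (SE 0.077, limma adjusted p 0.00139) and its partner Slc3a2 by 0.37 (SE 0.067, limma adjusted p 0.0491). Gclc rose by 0.42 (SE 0.043, limma adjusted p 0.00435) and Gclm, the modifier subunit of the same enzyme, by 0.32 (SE 0.047, limma adjusted p 0.0216). Cth, which makes cysteine and can make sulfide, rose by 0.40 (SE 0.067, limma adjusted p 0.0336).

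Without the block, 0 of the 44 passed in the average with iron, as did 0% of all probe sets. An unadjusted p below 0.05 was seen for 5 of the 44, against 5.61% of all probe sets. Slc7a11 and Gclc also passed in RAW_FAC against RAW with the block, as did 0.0244% of all probe sets. None of the 44 passed in FAC against alone with the block (0.00887% of all probe sets). There 8 had an unadjusted p below 0.05, against 5.74% of all probe sets. None passed in the macrophage comparisons, where 0 to 5 of the 44 had an unadjusted p below 0.05 in either fit. Over the table this share ran from 3.18% to 6.59%. The list's median difference with iron was 0.03, with 26 of 44 above 0, against 48.7% of all probe sets. In all 6 pairs, 7 genes were higher and 1 lower, beside 3.25% and 3.33% of all probe sets. Apart from the 5 named, these genes are given here after their values were seen. The higher ones were Papss1 (0.13), which makes the sulfate donor, and Txnrd1 (0.17), thioredoxin reductase. The lower one was Got1 (-0.15), an aminotransferase that also acts on cysteine.

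Sqor is 1 of several enzymes that pass electrons to coenzyme Q, and genes of others were read from a second list. It also holds separate subunits of 1 enzyme (Sdha to Sdhd) and the carrier subunits Etfa and Etfb, so its genes are not each such an enzyme. All 13 genes were found, 5 were above 0 in the average difference with iron, against 48.7% of all probe sets, and the median was -0.00. With the block 1 rose, Nqo1, a cytosolic quinone reductase, by 0.54 (SE 0.063, limma adjusted p 0.00640), and 0 fell, beside 0.381% of all probe sets. Without it 0 passed and 1 had an unadjusted p below 0.05, as had 5.61% of all probe sets. Earlier results were known for this list too, so these p-values describe and do not test. Chosen after their values were seen, Etfdh and Etfa, which carry electrons from fatty acid oxidation, were lower in all 6 pairs, with means of -0.07 and -0.06, as were 3.33% of all probe sets. Neither passed with the block (limma adjusted p 0.659 and 0.674), and Etfb, the partner subunit of Etfa, had a mean of -0.01 and was higher in 3 of 6 pairs.

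The cell type was checked against marker genes. Of 8 hepatocyte markers found, 5 lay above the table median, among them Hnf4a (10.45) and Apob (11.8), while Alb (5.20), Fgb (4.29) and Cps1 (4.24) lay below it. All 5 epithelial markers lay above it, with Krt8 at 14.3. Of 4 fibroblast markers 1 lay above it, Vim at 14.1. Of 14 macrophage markers 5 lay above it, among them Cd14 (12.04), Cd53 (7.53), Laptm5 (6.91) and Csf1r (6.46), and 9 below, among them Ptprc (3.50), Adgre1 (4.96) and Itgam (3.69). The macrophage markers' mean signal per array was 5.72 to 5.74 in alone, 5.72 to 5.78 in FAC, 5.72 to 5.82 in RAW and 5.75 to 5.80 in RAW_FAC, and none passed with or without the block (0 to 2 of the 14 had an unadjusted p below 0.05 in each comparison). Fewer cells and less RNA per cell cannot be told apart in such bulk samples.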

How the data were processed

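RNA of the 12 samples was extracted with the Qiagen RNeasy kit and labelled with biotin, per the labels. RMA and the affy package are named in the submitters' processing notes, without versions, and the deposited values are on the log2 scale. They ran from 2.42 to 14.6, with array medians of 5.63 to 5.68, and were not scaled further. RMA shrinks small differences of dim probe sets. Groups and replicate numbers came from the titles, and symbols from the platform annotation: 34958 probe sets had 1, 932 several and 9211 none.

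All 45101 probe sets were fitted with limma 3.58.1 in R 4.3.3, with 1 mean per group, empirical Bayes moderation, two-sided tests and a Benjamini-Hochberg adjusted p under 0.05. Tables and plots were made with Python 3.11.15, pandas 2.3.3 and matplotlib 3.10.9. The fits were also run on simulated data with independent arrays and changes placed only in RAW. Those data had no replicate number effect, so that run does not bear on the block or on the differences with iron. The number of arrays limits the precision.

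The members, lists and tests were chosen with earlier results of these data known. Named are all member probe sets, list genes that passed a fit, and for each Sqor probe set the 5 most alike, with and without replicate number means. A few further list genes and markers were named after their values were seen. List genes and markers were read from the probe set with the highest mean.

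With group means subtracted, the 18 pairs of arrays with equal numbers correlated at 0.24 to 0.43 and the 36 others at -0.31 to 0.02, so the replicate number was also used as a block. The median was 0.37 within an iron condition and 0.27 across, which the block does not model, so its SE may be too small for iron.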

Additional observations from a re-analysis of the deposited data

Results flagged for a closer look

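The differences of the Tst probe set with macrophages had opposite signs in the 2 iron conditions. Without iron it was lower in 3 of 3 same-number pairs, by -0.02, -0.10 and -0.13 on the log2 scale. With iron it was higher in 3 of 3, by 0.04, 0.16 and 0.31. The interaction was 0.253 with a limma adjusted p of 1.00 over all probe sets, so it did not pass. Tst was flagged by looking through the member probe sets for such opposite signs, and the share of all probe sets with them was not counted.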

How the results depend on the processing

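The mean log2 difference with iron of the brighter Sqor probe set was 0.42 with the replicate block, the same as without it, and ran from 0.28 to 0.55 when 1 array or 1 replicate number was left out without the block, and from 0.40 to 0.44 when 1 array was left out with it. Without replicate number 2 it was 0.38 and without number 3 0.45. Leaving 1 array out without the block leaves unequal numbers in the groups: FAC minus alone was 0.14 without alone replicate 1 and 0.68 without FAC replicate 1, and RAW_FAC minus RAW 0.16 without RAW replicate 1 and 0.69 without RAW_FAC replicate 1. The dimmer probe set ran from -0.01 to 0.05. Counts of probe sets called depended on the setting. FAC against alone went from 0 to 4 with the block and 6 with the block and 1 probe set per gene, and RAW_FAC against RAW from 0 to 11 and 14. The average with iron went from 0 to 172 with the block, 144 with the block and 1 probe set per gene, and 1 each with 1 probe set per gene, with trend and robust moderation and with array weights. It was 0 to 5 with replicates left out. The average with macrophages went from 1 to 3 with the block, 10 with the block and 1 probe set per gene, 2 with 1 probe set per gene, 0 with trend and robust moderation, 2 with array weights and 0 to 27 with replicates left out. RAW against alone and RAW_FAC against FAC each ranged from 0 to 3 with replicates left out. With the block and 1 array left out, the counts ran from 38 to 120 for the average with iron, 0 to 38 for the average with macrophages, 0 to 5 for FAC against alone, 0 to 13 for RAW_FAC against RAW and 0 to 2 for RAW against alone. The combinations with the block were chosen after the data were seen, and the cause of these shifts in counts was not tested. Of the other values by probe set and setting, 1226 stayed within the spread between replicates and 9 moved by more.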
